A study of Mus musculus with 6 samples.

Results

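The genes described here are 57 interferon-stimulated genes, interferon receptors, Janus kinases, Stat factors and suppressors of cytokine signalling, chosen by name, with the Oas and Irf families left out. Probes were taken where the array's symbol was the gene's name or an older synonym of it, which gave 85 probes for 54 of the 57 genes. Of 17849 gene symbols on the array 10830 were tested, 43 of the 57 among them. RNA was measured in whole tracheas of C57BL/6 mouse embryos at stage E18.5 with an Illumina bead array, whose probes are each carried by many beads. The 3 control pools were labelled wild type, with genotype Sox9+/+, and the 3 mutant pools Sox9-/-, which the protocol describes as loss of Sox9 in the mesenchyme, with no cartilage rings. Each pool joined 3 tracheas at random, so a group held 9 embryos, and 7 pregnant females supplied both groups. The driver of the mesenchymal deletion is not given in the sources used here.

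Cells secrete type I interferons when they sense foreign or misplaced nucleic acid. Type I interferons bind the receptor Ifnar1 with Ifnar2, whose kinases Jak1 and Tyk2 activate a complex of Stat factors that holds Stat2 and binds the interferon-stimulated response element (ISRE) in promoters. Type II interferon, the product of Ifng, binds Ifngr1 with Ifngr2, acts through Jak1 and Jak2, and is best known for genes with a gamma activated site (GAS). Most of their target genes respond to both types, and the products block virus entry, replication and release, or attack the vacuoles of intracellular microbes. Airway epithelium, fibroblasts, endothelium and macrophages can all make this response.

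The letters of these promoters were searched. Most members were chosen as interferon-stimulated genes, and the ISRE is an element of that response. A share above that of all genes therefore follows in part from the choice. In the RefSeq promoter windows of build GRCm38.p6, from 250 bases before to 50 bases after a start site, GAAA followed by NN and a second GAAA (ISRE) and TTCNNNGAA (GAS) were sought on both strands, and overlapping matches were allowed. Of the 57 members 45 had a window. The 250 bases before the start are shown for 6 members that rose and for Irgm1, whose probes disagreed, each 5′ to 3′ in the direction of the gene, with ISRE matches in capitals.
Isg15 (chr4:156200819-156201068, minus strand): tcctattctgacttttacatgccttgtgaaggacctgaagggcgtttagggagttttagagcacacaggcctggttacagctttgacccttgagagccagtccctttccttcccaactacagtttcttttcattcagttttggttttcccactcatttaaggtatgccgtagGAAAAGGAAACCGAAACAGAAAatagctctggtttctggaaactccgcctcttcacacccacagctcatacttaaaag
Rsad2 (chr12:26456453-26456702, minus strand): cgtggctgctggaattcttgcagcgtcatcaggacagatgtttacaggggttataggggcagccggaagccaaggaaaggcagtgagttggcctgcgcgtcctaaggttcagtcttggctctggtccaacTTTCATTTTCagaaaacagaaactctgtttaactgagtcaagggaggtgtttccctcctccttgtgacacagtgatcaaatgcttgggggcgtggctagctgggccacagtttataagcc
Stat2 (chr10:128270248-128270497, plus strand): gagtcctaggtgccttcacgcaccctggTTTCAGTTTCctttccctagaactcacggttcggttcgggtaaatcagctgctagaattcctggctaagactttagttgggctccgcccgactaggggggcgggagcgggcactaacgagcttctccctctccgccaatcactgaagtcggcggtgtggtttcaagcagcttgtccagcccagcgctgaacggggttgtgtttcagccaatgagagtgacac
Gbp3 (chr3:142559794-142560043, plus strand): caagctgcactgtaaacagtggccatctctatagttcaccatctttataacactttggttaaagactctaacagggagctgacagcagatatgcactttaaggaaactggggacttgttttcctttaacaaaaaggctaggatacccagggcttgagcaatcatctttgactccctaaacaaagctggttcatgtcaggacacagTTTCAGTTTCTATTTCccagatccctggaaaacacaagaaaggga
Igtp (chr11:58199306-58199555, plus strand): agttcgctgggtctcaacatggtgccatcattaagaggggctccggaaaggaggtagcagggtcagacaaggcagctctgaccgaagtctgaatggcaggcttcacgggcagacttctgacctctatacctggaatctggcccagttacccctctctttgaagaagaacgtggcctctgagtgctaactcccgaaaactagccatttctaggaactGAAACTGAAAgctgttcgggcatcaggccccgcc
Iigp2, now Irgm2 (chr11:58214727-58214976, plus strand): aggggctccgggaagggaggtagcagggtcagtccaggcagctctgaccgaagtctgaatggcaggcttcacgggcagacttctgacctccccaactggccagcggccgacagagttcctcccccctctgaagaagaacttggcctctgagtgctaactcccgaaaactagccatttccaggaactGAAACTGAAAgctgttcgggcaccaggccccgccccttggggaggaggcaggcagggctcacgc
Irgm1 (chr11:48871421-48871670, minus strand): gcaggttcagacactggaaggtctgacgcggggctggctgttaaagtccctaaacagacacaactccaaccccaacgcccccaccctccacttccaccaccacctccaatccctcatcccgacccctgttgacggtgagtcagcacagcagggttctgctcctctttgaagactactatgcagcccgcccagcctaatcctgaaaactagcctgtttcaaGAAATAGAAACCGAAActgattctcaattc
The ISRE of Isg15 was a run of 3 overlapping matches that began at -78, -72 and -66 relative to the start. Rsad2 held a match at -120, Stat2 at -222, Igtp at -34 and Iigp2 at -64. Igtp and Iigp2 are paralogs, and their windows shared an identical run of 61 bases. In Gbp3 the matches began at -45 and -39 in the first of 2 windows, and in Irgm1 at -30 and -24.

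An ISRE was present in a window of 9 of the 10 members that rose and had a window (90.0%), in 7 of 24 that were tested and not called (29.2%), and in 3.99% of all 27025 genes in the promoter table. Of those 24, the 8 signalling genes held 0 and the other 16 held 7 (43.8%). Lgals3bp was the member without it among the 10. The GAS occurred in 4 of those 10 members (40.0%), in 7 of the 24 (29.2%) and in 9.55% of all genes. By class, the ISRE was found in 6 of 7 genes typical of type II interferon (85.7%), in 8 of 15 typical of type I (53.3%), in 6 of 12 induced by both and in 2 of 11 signalling genes (18.2%). Ddx58, Eif2ak2 and Ifitm3 had theirs just after the start, the first at position 3, 19 and 3. A match describes letters only, and binding was not measured.

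**Figure D1:**
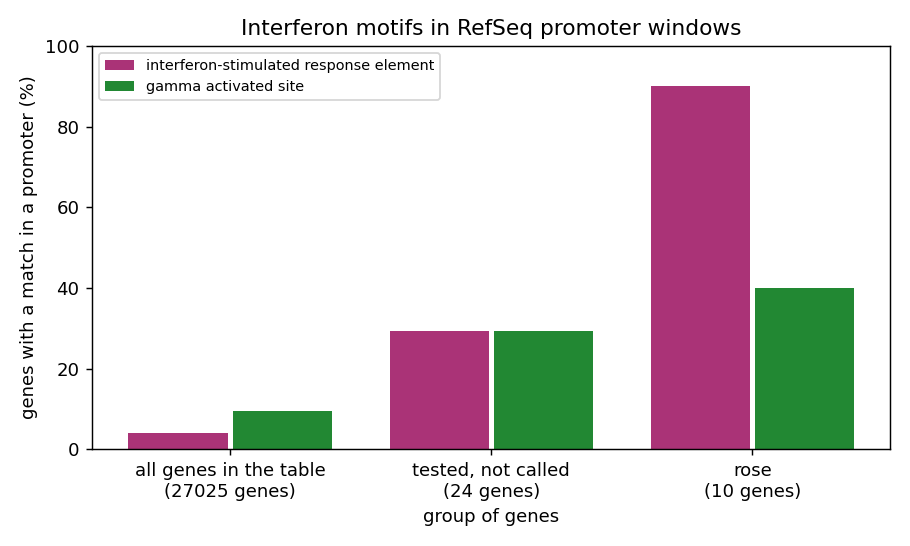
Percent of genes (y axis) with at least 1 match of the ISRE or the GAS in a RefSeq promoter window, for all genes in the table, the tested members that were not called and the members that rose. Of the members not called, 8 are signalling genes. The ISRE bar stands at 3.99%, 29.2% and 90.0% and the GAS bar at 9.55%, 29.2% and 40.0%.

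Of 34 tested members outside the signalling class, 13 were called higher in the mutant pools, and no receptor or kinase passed the test. In 31 of the 34 the change was above 0 (median 0.59), against 51.1% of all genes. Of the 43 tested members 14 rose (32.6%), where 2.16% of all 10830 genes did, and 0 fell, where 3.37% of all genes did (limma, adjusted p below 0.05; 5.53% in both directions). At an unadjusted p below 0.05 a further 12 members stood without a call (27.9%), beside 19.6% of all genes. The 14 were Mx2, Dhx58, Isg15, Usp18, Parp14, Igtp, Iigp2, Rsad2, Lgals3bp, Gbp3, Stat2, Ddx58, Eif2ak2 and Ifitm3. The groups did not overlap in 27 members, where they did not in 31.4% of all genes. In 25 of them (58.1% of those tested) the mutant pools were the higher, against 15.3% of all genes, and in 2 the lower, against 16.1%. In 34 members (79.1%) the change was above 0, against 51.1%. The members were chosen with earlier results of these data known, so shares above those of all genes may follow in part from the choice. With 3 pools a group, an exact test allows no smaller two-sided p than 0.10 for a single gene. The p-values behind the calls come from the model of limma, which also shares the spread across genes. With 2 pools in a group fewer members and fewer of all genes were called. Leaving out control pool 1, 2 or 3 gave 9, 8 and 2 members that rose, beside 2.15%, 0.449% and 0.375% of all genes. Leaving out mutant pool 1, 2 or 3 gave 4, 2 and 6, beside 0.965%, 0.197% and 0.395%.

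**Figure D2:**
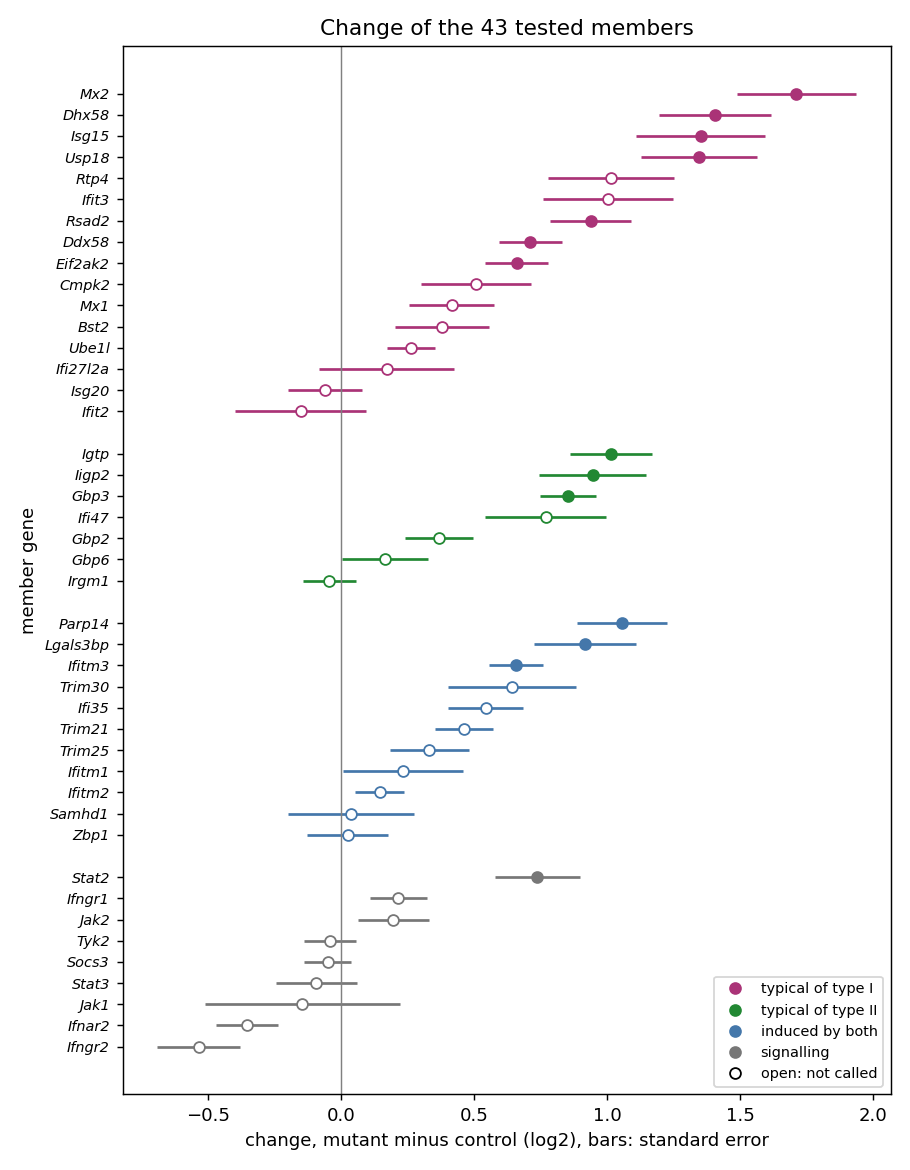
Change of each of the 43 tested members, mutant minus control on the log2 scale (x axis), with the standard error as the bar, in 4 classes. Filled points are the 14 members that rose, from 0.66 in Ifitm3 to 1.71 in Mx2, and the signalling genes lie on both sides of 0.

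Array, tissue and cell composition set limits on all of these values. The control arrays had a median raw intensity of 183 to 198 and the mutant arrays 205 to 211, and between 14468 and 14726 probes were detected per array. The 6 arrays shared 1 slide, on which the control pools took the first positions, so group and position cannot be told apart. The Sox9 probe was at background in the controls (0 of 3 arrays detected, raw 148, 141 and 151) and just above it in the mutants (3 of 3, raw 202, 185 and 196), against the label, so it checks nothing, and the groups are named as labelled. The airway genes Krt8 (13.48 and 13.68) and Nkx2-1 (10.32 and 10.74) were detected on all 6 arrays (control and mutant means, log2). The distal lung genes Sftpd (12.95 and 13.02), Sftpc (6.54 and 7.37) and Ager (8.15 and 7.59) were also detected on all 6 arrays. Sftpa1 of the same list was detected on 0. These values alone do not set trachea apart from lung. The cartilage genes were lower in the mutant pools, 5 of 7 tested having fallen, with mean list levels of 8.33 to 8.59 in control and 5.80 to 6.18 in mutant pools. In bulk tissue, more cells of a type and more RNA per cell cannot be told apart.

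Markers of cell types, some of them known for strong interferon responses, were read beside the members. Of 11 macrophage genes, Aif1 rose and 10 did not pass (4 of the 11 at unadjusted p below 0.05), with mean list levels of 8.97 to 9.33 in control and 9.11 to 9.17 in mutant pools, and the defining Csf1r changed by -0.06, C1qa by -0.19 and Cd68 by 0.12. Among the others, Cd14 changed by 0.53, Mrc1 by -0.29 and Cd163 by -1.10, none of them called. The plasmacytoid dendritic cell marker Siglech, the T and NK cell markers Cd3e and Ncr1 and the B cell marker Cd79a were detected on 0 of 6 arrays. Of 3 tested T and NK genes 1, Prf1, fell (list level 6.29 to 6.64 in control, 6.41 to 6.50 in mutant pools). Prf1 changed by -0.75, and the T cell gene Cd3g by 0.74 without a call (SE 0.19, limma adjusted p = 0.0729). The 2 tested plasmacytoid genes, Pacsin1 and the muscle-expressed Cox6a2, did not pass (6.06 to 8.35, and 8.75 to 8.94), and neither did the B cell gene Cd79b. Of 3 tested neutrophil genes 0 were called (3 at unadjusted p below 0.05 in limma), but their level was 5.79 to 6.49 in control and 7.49 to 9.75 in mutant pools, highest in mutant pool 3. Distal lung genes ranged from 9.27 to 9.47 and from 9.74 to 10.30, with Sftpb and Abca3 up, 2 of 5. In smooth muscle 2 of 4 fell (11.12 to 11.49, and 10.54 to 11.07), and in tracheal epithelium 0 of 8 (10.84 to 11.01, and 11.08 to 11.19; 6 at unadjusted p below 0.05), endothelium 0 of 4 (8.44 to 8.75, and 8.12 to 8.53; 1 at unadjusted p below 0.05) and skeletal muscle 1 of 5, Pvalb (6.84 to 8.95, and 8.44 to 9.65), passed. The part of the lists that differ in the rises of the members was not tested.

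At the head of the pathway, the receptor genes did not pass. Ifnar2, a chain of the type I receptor, read 7.63, 7.72 and 7.43 in the control pools and 7.13, 7.38 and 7.21 in the mutant pools (log2 change -0.35, SE 0.12, limma adjusted p = 0.122). All normalized mutant values were below the control values, while the raw intensities (308, 316 and 312 against 304, 321 and 311) overlapped, and its other probe changed by -0.10. Ifngr2, the signal-transducing chain of the type II receptor, read 8.40, 8.21 and 8.50 and then 8.14, 7.64 and 7.73 (-0.54, SE 0.15, limma adjusted p = 0.0946). Here too the normalized groups were apart, while the raw intensities (430, 390 and 494 against 463, 358 and 380) overlapped. The other probes of Ifngr2 changed by 0.02 and 0.03, so its probes do not share a direction. The ligand-binding chain Ifngr1 stood at 9.38, 9.27 and 9.07 against 9.38, 9.46 and 9.53 (0.21, SE 0.11, limma adjusted p = 0.266), just apart between the groups. Ifnar1, the other type I chain, was detected on 0 arrays.

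The kinases showed overlapping groups. Jak1, shared by both receptors, was read close to background at 6.03, 5.30 and 5.83 in control pools and 6.14, 4.76 and 5.82 in mutant pools (-0.15, SE 0.37, limma adjusted p = 0.841), and was not detected on 1 mutant array. Jak2, the kinase of the type II receptor, stood at 9.32, 9.44 and 9.45 against 9.84, 9.37 and 9.58 (0.20, SE 0.13, limma adjusted p = 0.411). Tyk2, that of the type I receptor, stood at 9.59, 9.53 and 9.58 against 9.66, 9.52 and 9.39 (-0.04, SE 0.10, limma adjusted p = 0.825), and its other probes changed by -0.35 and -0.21. None of the 3 passed, and in each the groups overlapped.

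Stat2, the factor that joins the type I response complex, was the signalling member that rose. Its log2 signal was 7.49, 7.63 and 7.41 in the control pools and 8.21, 8.56 and 7.97 in the mutant pools, so that the groups were apart. The change was 0.74 (SE 0.16, 1.67-fold, limma adjusted p = 0.0492), close to the threshold, and each of the 6 fits that left out a pool lost the call, with adjusted p up to 0.133. It was 0.46 without background correction. Stat3, the factor of interleukin-6 type cytokines, read 9.70, 10.19 and 9.69 against 9.73, 9.70 and 9.86 (-0.09, SE 0.15, limma adjusted p = 0.745). Control pool 2 was its highest sample, and its other probes changed by 0.04 and 0.38.

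The suppressor Socs3, a feedback inhibitor of Janus kinases, differed by less than the spread of the pools. It read 8.91, 9.02 and 9.07 in the control pools and 8.90, 9.00 and 8.95 in the mutant pools (-0.05, SE 0.09, limma adjusted p = 0.760). Socs1, the suppressor best known for type II signalling, was detected on 2 of 6 arrays and was not tested. Among 9 tested signalling members 1 rose, 6 changes were below 0 and the median change was -0.05, beside 0.01 over all genes.

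The ISG15 system rose at the tag and at the enzyme that removes it. Isg15, a ubiquitin-like protein that is joined to other proteins, read 6.94, 7.71 and 6.78 in the control pools and 8.33, 8.63 and 8.53 in the mutant pools. The control pools were the more scattered, and all mutant pools were above them (log2 change 1.35, SE 0.24, 2.55-fold, limma adjusted p = 0.0313; 0.81 without background correction). Usp18, which removes ISG15 and also restrains the type I receptor, went from 9.23, 10.08 and 9.96 to 11.08, 11.13 and 11.09 (1.34, SE 0.22, 2.54-fold, limma adjusted p = 0.0249). Its mutant pools lay close together, and its other probes changed by 1.41 and 1.52. Ube1l, now Uba7, the enzyme that activates ISG15, stood at 10.85, 10.84 and 10.83 against 10.98, 11.17 and 11.14 (0.26, SE 0.09, limma adjusted p = 0.134), apart between groups but not called. Herc5, a synonym of Herc6 in the RefSeq table, had no probe.

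Among the sensors of RNA, Dhx58 had the largest change. Dhx58, or LGP2, which tunes the other cytoplasmic RNA sensors, rose from 6.71, 7.20 and 6.74 to 8.23, 8.66 and 7.98 (log2 change 1.41, SE 0.21, 2.65-fold, limma adjusted p = 0.0201; 0.81 without background correction). Ddx58, the sensor RIG-I, rose from 6.86, 6.87 and 6.67 to 7.68, 7.51 and 7.34 (0.71, SE 0.12, limma adjusted p = 0.0263; 0.36 without background correction). Eif2ak2, the kinase PKR that halts translation on double-stranded RNA, rose from 10.33, 10.52 and 10.29 to 11.15, 11.12 and 10.85 (0.66, SE 0.12, limma adjusted p = 0.0317). In all 3 the groups were well apart. Zbp1, a sensor of Z-form nucleic acid, changed by 0.03 (SE 0.15), and the sensor Ifih1, or MDA5, was detected on 0 arrays. The p200 family genes Ifi203 and Ifi204, whose relatives bind DNA, were also detected on 0 arrays, and Ifi205 on 1.

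Genes that act on RNA and nucleotides were mixed. Rsad2, or viperin, which makes a chain-terminating nucleotide, rose from 8.29, 8.78 and 8.69 to 9.54, 9.66 and 9.37 (log2 change 0.94, SE 0.15, 1.92-fold, limma adjusted p = 0.0253). Cmpk2, a nucleotide kinase, changed by 0.51 (SE 0.21, limma adjusted p = 0.187), with the groups just apart. Ifit3, of a family that binds viral RNA, read 7.12, 7.94 and 7.30 in the control pools and 8.80, 8.33 and 8.23 in the mutant pools. Its change of 1.003 (SE 0.25, limma adjusted p = 0.0661) missed the threshold, was called under 5 alternatives, and was 0.23 by its other kept probe, which was near background. Ifit2 of the same family read 8.49, 9.23 and 9.08 against 9.15, 8.75 and 8.44 (-0.15, SE 0.25), with overlapping groups, and both its probes gave a change below 0. The exonuclease gene Isg20 changed by -0.06 and the nucleotide hydrolase gene Samhd1 by 0.04, both with overlap, and Ifit1 was detected on 0 arrays. Whether Ifit2 and Ifit3 differ in their change was not tested.

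The proteins of membranes included 1 call. Ifitm3, which blocks the fusion of viruses in endosomes, rose from 13.43, 13.32 and 13.32 to 14.02, 14.15 and 13.87 (log2 change 0.66, SE 0.10, 1.58-fold, limma adjusted p = 0.0226). It was bright on all arrays, and its change was 0.65 without background correction. The related Ifitm2 changed by 0.14 (SE 0.09) and Ifitm1 by 0.23 (SE 0.23), both with overlapping groups. The 3 genes are close in sequence, so their probes may share signal. Bst2, or tetherin, which holds budding virus at the cell surface, changed by 0.38 (SE 0.18), and the small hydrophobic protein gene Ifi27l2a by 0.17 (SE 0.25).

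Mx2 had the largest change of all members. In the mouse Mx2 encodes a cytoplasmic antiviral GTPase and Mx1 a nuclear one, and classical laboratory strains carry alleles of both genes that make no functional protein. Mx2 read 5.51, 5.93 and 5.88 in the control pools and 7.52, 7.89 and 7.05 in the mutant pools. The lowest mutant pool stood clear of the highest control pool (log2 change 1.71, SE 0.22, 3.27-fold, limma adjusted p = 0.0154). Since the control signal lay near background, the size depended on the correction, and it was 0.71 without it. Mx1 changed by 0.41 (SE 0.16, limma adjusted p = 0.171), also with the groups apart.

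**Figure D3:**
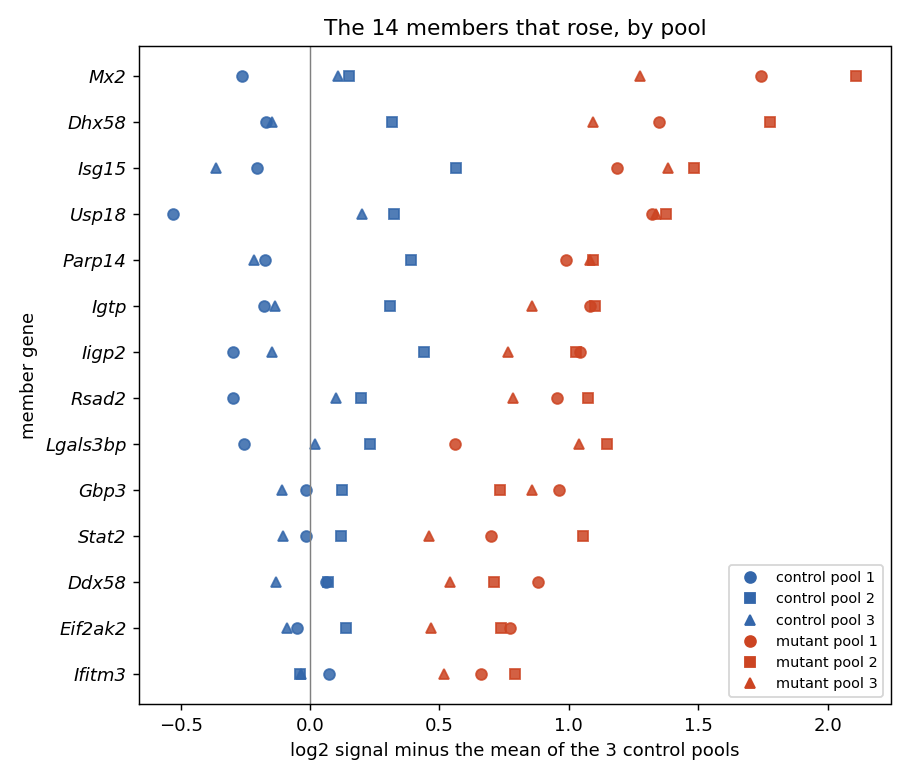
Log2 signal of the 14 members that rose, minus the mean of the 3 control pools (x axis), with a point for each pool. In each gene the 3 mutant pools lie to the right of the 3 control pools, and control pool 2 is the highest control pool in 13 of the 14.

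The guanylate-binding proteins and immunity-related GTPases, large GTPases best known as targets of type II interferon, also rose in part. Some members of these families attack vacuoles holding microbes, and others regulate those that do. Gbp3 rose from 7.81, 7.95 and 7.72 to 8.79, 8.56 and 8.68 (log2 change 0.85, SE 0.11, 1.80-fold, limma adjusted p = 0.0126), and by 0.59 with its other probe. The array lists both probes as Gbp4, an older symbol of Gbp3, while the gene now called Gbp4 is listed there as Mpa2 and was detected on 0 arrays. Igtp, now also Irgm3, rose from 7.44, 7.92 and 7.48 to 8.69, 8.71 and 8.47 (1.01, SE 0.15, 2.02-fold, limma adjusted p = 0.0212; 0.67 without background correction). Its neighbour Iigp2, now Irgm2, rose from 8.57, 9.31 and 8.73 to 9.91, 9.90 and 9.64 (0.95, SE 0.20, 1.93-fold, limma adjusted p = 0.0461). Control pool 2 was the highest control sample of all 3 genes. Ifi47, another of these GTPases, read 6.22, 6.76 and 7.01 against 7.36, 7.19 and 7.74 (0.77, SE 0.23, limma adjusted p = 0.0999), apart but not called. Gbp2 changed by 0.37 (SE 0.13) and Gbp6 by 0.16 (SE 0.16). Iigp1 and Tgtp were detected on 0 arrays.

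Irgm1, a regulator among the immunity-related GTPases, was read differently by its probes. The brighter probe, which stands for the gene, read 12.42, 12.61 and 12.64 in the control pools and 12.56, 12.42 and 12.55 in the mutant pools (log2 change -0.05, SE 0.10, limma adjusted p = 0.815). The other kept probe read 7.85, 8.55 and 7.81 against 8.94, 9.12 and 8.81, a change of 0.89 with the groups apart. The mean of both probes changed by 0.42 (limma adjusted p = 0.109). Of 11 tested members with more than 1 kept probe, 7 had probes that shared a sign and 4 did not, namely Irgm1, Trim21, Stat3 and Ifngr2.

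The Trim ubiquitin ligases did not pass. Trim21, a cytoplasmic antibody receptor, read 8.68, 8.80 and 8.50 in the control pools and 9.14, 9.20 and 9.02 in the mutant pools (log2 change 0.46, SE 0.11, limma adjusted p = 0.0617). The groups were apart, it was called under 5 alternatives, and its other kept probe, near background, changed by -0.30. Trim30, now Trim30a, a brake on Toll-like receptor signalling, stood at 5.77, 6.68 and 6.19 against 7.13, 6.67 and 6.77 (0.64, SE 0.24, limma adjusted p = 0.159), with overlap. Trim25, which adds ubiquitin to RIG-I, changed by 0.33 (SE 0.15).

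Other members rose as well. Parp14, an ADP-ribosyltransferase, rose from 8.89, 9.46 and 8.85 to 10.06, 10.16 and 10.15 (log2 change 1.06, SE 0.17, 2.08-fold, limma adjusted p = 0.0249). Lgals3bp, a secreted glycoprotein that binds galectins, rose from 10.63, 11.12 and 10.90 to 11.44, 12.03 and 11.92 (0.92, SE 0.19, 1.89-fold, limma adjusted p = 0.0453). The mutant pools of Parp14 were nearly equal and those of Lgals3bp were spread. Rtp4, a chaperone of membrane receptors, read 6.15, 6.29 and 5.49 against 7.20, 7.10 and 6.67 (1.01, SE 0.24, limma adjusted p = 0.0596), a miss that became a call under 7 alternatives. Ifi35 changed by 0.54 (SE 0.14, limma adjusted p = 0.0735) with the groups apart. Parp9 and Ifi44 were detected on 0 arrays, and Dtx3l and Xaf1 had no probe.

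Calls were made among members typical of type I and of type II interferon, and the difference between the classes was not tested. By textbook knowledge 21 members were put in the first class and 9 in the second. Of 16 tested members typical of type I, 7 rose and the median change was 0.68, with a range from -0.15 to 1.71. Of 7 tested members typical of type II, 3 rose and the median was 0.77, from -0.05 to 1.01. Of 11 induced by both, 3 rose and the median was 0.46. The median over all genes was 0.01. Without background correction the type I median was 0.40 and the type II median 0.37. Without 1 pool the type II median ran from 0.55, without control pool 1, to 0.88, without mutant pool 2, and the number of type I members that rose from 1 to 5.

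The pools were compared next. Over the 34 tested members outside the signalling class, the median deviation from each gene's own mean was -0.40, -0.15 and -0.36 in control pools 1 to 3 and 0.36, 0.26 and 0.26 in mutant pools 1 to 3. Control pool 2 was the control pool with the highest level, and no control pool reached a mutant pool. Among the 14 members that rose, control pool 2 was the highest control sample in 13, mutant pool 2 the highest mutant sample in 10 and mutant pool 3 the lowest in 9.

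**Figure D4:**
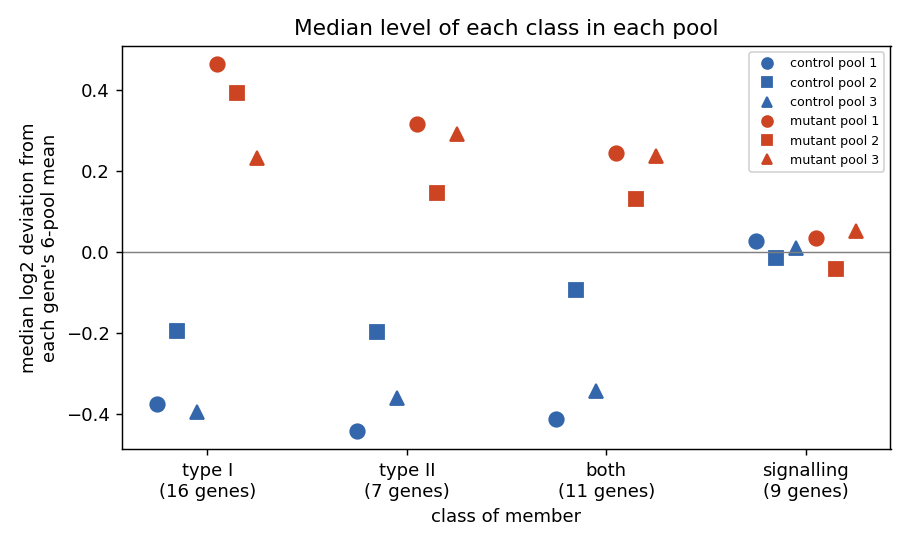
Median log2 deviation of the tested members of each class from each gene's mean over the 6 pools (y axis), with a point for each pool. In the type I class the control pools lie between -0.39 and -0.19 and the mutant pools between 0.23 and 0.46, and in the signalling class all 6 lie near 0.

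The interferon genes themselves were at or near background. Of 21 ligand and lambda receptor genes 19 had a probe and 5 were tested, of which 0 were called in either direction (limma; 1, Ifnlr1, at an unadjusted p below 0.05). The type I gene Ifnb1 and the type II gene Ifng were detected on 0 of 6 arrays. Ifna1, detected on 6 arrays, has near-identical relatives, which its probe may also read, and changed by -0.07. Ifnlr1, the receptor of lambda interferons in epithelium, read 8.38, 8.25 and 8.27 in the control pools and 8.71, 8.89 and 8.65 in the mutant pools (0.45, SE 0.10, limma adjusted p = 0.0525). All its mutant pools were above the control pools and its other probe changed by 0.64, but it missed the threshold. The list had 1 call under 7 of the 18 alternatives.

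Among 50 other interferon-induced genes, 40 had a probe and 24 were tested, with a median change of 0.21. Of these 2 rose (8.33%) and 0 fell, beside 2.16% and 3.37% of all genes. All mutant pools were above the control pools in 12 of the 24, against 15.3% of all genes. Under the alternatives that kept all pools the number that rose ran from 1 to 8, beside 0.388% to 5.77% of all genes. Without 1 pool it ran from 0 to 2, beside 0.197% to 2.15%. Adar, the enzyme that edits double-stranded RNA, rose from 7.60, 7.62 and 7.33 to 8.31, 8.38 and 8.20 (log2 change 0.78, SE 0.11, limma adjusted p = 0.0196), and Casp4, the caspase that senses lipopolysaccharide, rose by 0.74 (SE 0.15, limma adjusted p = 0.0450). Of 19 tested genes of the JAK-STAT pathway outside the members 0 were called (limma; 3 at an unadjusted p below 0.05), and the median was -0.10. Both calls of the first list were lost in some fits without 1 pool, with adjusted p up to 0.0827 for Adar and 0.144 for Casp4.

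In the authors' deposited table, all 43 tested members were listed with the probes used here, and 11 of the 14 that rose had an adjusted p below 0.05. There Iigp2 had 0.0528, Stat2 0.0569 and Lgals3bp 0.0516. Of the 14 members, Mx2 and Gbp3 kept their calls in all 6 fits without 1 pool and the other 12 lost theirs in at least 1, with adjusted p up to 0.145.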

How the data were processed

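The deposited table without normalization gives, per the file headers, a mean intensity over beads for 25697 probes in 6 columns, each beside a bead standard error, a bead number and a detection p-value. The authors' deposited log2 values, made per the submitters' processing notes with R 3.2.3 and limma 3.26.9, lay within 0.0170 of those computed here. The authors' deposited table also holds limma scores (t and log odds), not used here.

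Background was corrected and quantile normalization done by neqc (limma 3.58.1, R 4.3.3), with the negative control level inferred from the detection p-values and an offset of 16. A probe was kept where 3 or more arrays detected it at p below 0.05, which left 14711. Symbols were updated through a RefSeq table of GRCm38.p6: 12036 were current, 5224 updated and 860 kept. The kept probe with the highest mean stood for a gene. Differences were tested over all 10830 genes with lmFit and eBayes, two-sided, with no covariate and Benjamini-Hochberg adjustment at 0.05. The spread entering each p-value is that among pools, and the number of arrays limits the precision. Levels of different probes are not compared. The test was tried on simulated data.

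Members and lists were chosen with earlier results of these data known. All members that passed, the Stat factors, receptors and kinases, and up to 2 members by smallest p in role groups without a call were given with values. Pool values of Ifit2, Ifit3, Ifi47, Irgm1, Rtp4, Ube1l and Ifnlr1 are also given, and these were chosen after their values were seen. The lists were given by counts and medians, with no test. Alternatives changed the background correction, offset, normalization, filter, probe summary, variance model or threshold, took the authors' values, added a block for pool number, or dropped a pool.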

Additional observations from a re-analysis of the deposited data

How the results depend on the processing

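The count of 14 members that rose lay between 11 and 17 under the other backgrounds, normalizations, value sources, filters, probe summaries and variance models, and was 19 at an adjusted p below 0.10 and 0 below 0.01. The share of all genes called higher moved too, from 2.16% to 0.768% without a filter (11 members) and 5.77% with array weights (17 members). In the other fits with 17 members it was 2.88% to 4.2%. With median scaling 17 members rose, while 54.8% of all called genes were higher against 39.1% with quantile normalization. Without 1 pool the count ran from 2 to 9, for type I members from 1 to 5 and for type II members from 1 to 3. The count that fell was 0, and 1 with array weights, at an adjusted p below 0.10 and in 1 fit without a pool (0 to 1), each time Ifngr2. With pool number as a replicate block 5 members rose, beside 0.388% of all genes, 3 of type I and 1 of type II, although the numbers do not pair the pools, which were made at random and whose same-numbered deviations correlated at -0.01, -0.09 and -0.10. At an adjusted p below 0.01, 0 of either type rose. The type I median of 0.68 was 0.40 without background correction and 0.51 without a filter, and 0.62 to 0.77 without 1 pool. The type II median of 0.77 was 0.37 without background correction, 0.61 with an offset of 50, 0.37 without a filter, 0.51 with array weights and 0.55 to 0.88 without 1 pool. The filter setting adds members below background, and the cause of the other shifts was not tested.

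Some changes of members that were not called turned sign under some settings. With median scaling Isg20 was 0.037, Tyk2 0.043 and Socs3 0.055, with the mean of probes Irgm1 was 0.42 and Stat3 0.11, and with array weights Samhd1 was -0.097. Without 1 pool, Ifit2 ran from -0.37 to 0.017, Isg20 from -0.20 to 0.0086, Ifitm1 from -0.0094 to 0.38, Zbp1 from -0.11 to 0.14, Irgm1 from -0.11 to 0.0017, Stat3 from -0.18 to 0.071, Jak1 from -0.42 to 0.26, Tyk2 from -0.11 to 0.027 and Samhd1 from -0.16 to 0.20.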
